A study of Mus musculus with 36 samples.

Results

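Glycolysis and the response to low oxygen were followed in cultured mouse intestinal organoids through 33 genes, chosen by symbol for their known roles and matched to the Ensembl identifiers of the count tables. All 33 were found among the 52636 genes listed. They comprise the glucose transporter Slc2a1, 11 genes of upper glycolysis, 5 of lower glycolysis, 4 for the fate of pyruvate and lactate, 3 of oxygen sensing and 9 further genes of the hypoxia response. Of these, 32 held enough counts to be tested. Ldhb, a lactate dehydrogenase subunit, had between 0 and 17 counts per library and was not.

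The organoids were grown from jejunal crypts of C57BL/6 mice, and RNA was sequenced from 6 libraries of each of 6 groups. Organoids of the control group were kept in complete media, a commercial growth medium, with an IgG antibody (complete media + IgG). The groups QCM + IgG and SCM + IgG received that medium mixed with concentrated medium from quiescent or from senescent mouse embryonic fibroblasts, which had been held in reduced oxygen. The group Wnt5a + IgG received complete media with Wnt5a, a noncanonical Wnt ligand. The groups SCM + anti-Ptk7 and Wnt5a + anti-Ptk7 received an antibody against the receptor Ptk7 in place of IgG, so that every culture held an antibody. Complete media or QCM with anti-Ptk7 was not analysed here. The design names 6 mice as the source of the crypts but does not state which library came from which mouse, so p-values measure the spread between these libraries.

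Glycolysis splits glucose into pyruvate. Glucose enters through transporters such as Slc2a1, is trapped by hexokinases and cut into triose phosphates by the upper enzymes. The lower enzymes then yield ATP and pyruvate, which Ldha turns into lactate for export by Slc16a3. In the mitochondria, pyruvate is used by pyruvate dehydrogenase unless Pdk1 shuts that enzyme off. When oxygen is plentiful, the prolyl hydroxylases Egln1 and Egln3 mark the factor Hif1a for destruction. When it is scarce, Hif1a persists and switches on most of the genes described here, Egln3 among them, at sites with the core of the hypoxia response element. In the intestine the epithelium borders the nearly anoxic lumen, and this response is part of its normal physiology.

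The libraries held between 9581589 and 21029769 counts, with a median of 13490071. Epithelial markers (6 genes) summed to between 7517 and 33853 over all libraries, in CPM (counts scaled to a common library size by the TMM method, with TMM standing for a trimmed mean of M-values), and fibroblast markers (9 genes, 3 of them at 0 in every library) to between 0.897 and 10.6 CPM. The fetal-like markers (7 genes) had a median sum of 331 CPM in complete media + IgG and 547 CPM in QCM + IgG. With SCM it was 1938 CPM (IgG) and 874 CPM (anti-Ptk7), and with Wnt5a it was 3817 and 2767 CPM in the same order. The epithelial sum had a median of 8449 CPM in complete media + IgG, 14801 in SCM + IgG and 15165 in Wnt5a + IgG, with 4 (66.7%) and 5 (83.3%) of the 6 genes called higher than in complete media, where 6.08% and 10.2% of all genes tested were called in either direction. The 4 were the keratins Krt8, Krt18, Krt19 and Krt20, joined in Wnt5a by Cdh1, and Epcam was called in neither. Tuft cell markers (6 genes, 4 tested) had a median sum of 9.06 CPM in complete media + IgG and 24.2 in Wnt5a + IgG, where 3 of the 4 (75%) were called higher. Of 10 enterocyte markers, QCM also had 3 calls upward (Alpi, Fabp1 and Apoa4), where 0.374% of all genes were called. SCM had 4 upward and Wnt5a 3, with Anpep called lower in both (50% and 40% called). Of 6 Paneth cell markers, Mmp7 and Ang4 were called higher in SCM and in Wnt5a (33.3% each), and Ang4 in QCM. Over all 6, the median log2 fold change was 0.21 in SCM and −0.20 in Wnt5a. Their sum had a median of 4026 CPM in complete media + IgG, 4074 in SCM + IgG and 3720 in Wnt5a + IgG. Of 7 enteroendocrine markers 1 was called in each of these 3 comparisons with complete media, Cck higher in QCM and Neurog3 lower in SCM and in Wnt5a. Of 8 stem cell markers 1 was called in SCM (Smoc2, lower) and 2 in Wnt5a (Smoc2 lower, Rnf43 higher). Of the goblet cell and proliferation markers none was called. The part of these shifts in the results was not tested, and in whole cultures a different share of cells and a different RNA level per cell cannot be told apart.

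Libraries of 2 replicate numbers stood apart for these genes. Replicate 3 had the highest level of its group for 18 of the 32 members in complete media + IgG, for 23 in QCM + IgG and for 23 in SCM + IgG, against 16%, 19.5% and 20.2% of all 15497 genes tested. In the other 3 groups replicate 3 was the highest for 3, 8 and 5 members, against 12.6%, 15.9% and 17% of all genes. In Wnt5a + IgG and Wnt5a + anti-Ptk7, replicate 1 was the highest for 13 and 18 members, against 26.8% and 28.7% of all genes, where its fetal-like sums were 9240 and 8537 CPM. Replicate 1 had the highest fetal-like and epithelial sums in each of the 6 groups, not in these alone. The comparisons below are therefore also given without the 6 libraries numbered 3 or 1 where that matters, an alternative chosen after seeing these levels.

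**Figure D1:**
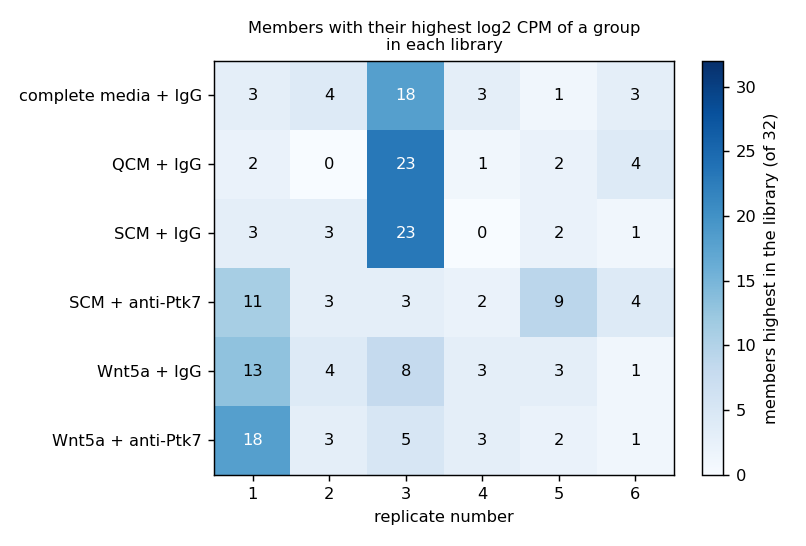
For each group (rows) and replicate number (columns), the number of the 32 tested members that had their highest log2 CPM of the group in that library. Replicate 3 holds 18, 23 and 23 members in the 3 groups at the top, and replicate 1 holds 13 and 18 in the 2 groups at the bottom.

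Per kilobase of exon, the mean over the 36 libraries was highest for Tpi1 and Ldha (232 CPM per kb each) and for the aldolase Aldoa (210 CPM per kb), followed by the pyruvate kinase Pkm (59.6 CPM per kb), the enolase Eno1 (51.4 CPM per kb) and Slc2a1 (51.2 CPM per kb). Since reads within coding sequences were counted, levels were also divided by coding length, a scale chosen after seeing the data. The 3 highest were the same (712, 709 and 487 CPM per kb of coding sequence), but the order below them moved. The phosphofructokinases Pfkl and Pfkp stood at 37.4 and 22.7 CPM per kb of exon but at 107 and 116 per kb of coding sequence, with Pfkm below both on either scale (7.69 and 10.3). The order of the hexokinases moved with the group. Per kb of exon, Hk1 and Hk2 were at 2.99 and 5.37 CPM in complete media + IgG and at 9.04 and 6.69 in Wnt5a + IgG, and per kb of coding sequence at 8 and 11.7 and at 24.2 and 14.5. Of the hypoxia genes, per kb of exon, Car9, a carbonic anhydrase at the cell surface, reached 41.9 CPM per kb, Ndrg1 35.1 and Vegfa, the angiogenic growth factor, 19.1.

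Gapdh and Pgam1, which act in lower glycolysis, were the lowest on both scales, at 0.927 and 0.395 CPM per kb of exon, with Pgk1 at 3.56. Of the 50-base windows in the transcripts of Gapdh, 58.4% also occur in transcripts of other genes, 215 of them pseudogenes. The share was 68.0% for Pgk1, 41.5% for Pgam1, 49.5% for Eno1 and 59.1% for Bnip3, a mitochondrial receptor of mitophagy, and under 25% for every other member. How reads that match several places were counted is not given in the sources used here, so the levels of these 5 genes are uncertain, and the part of the shared sequence in them was not tested.

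**Figure D2:**
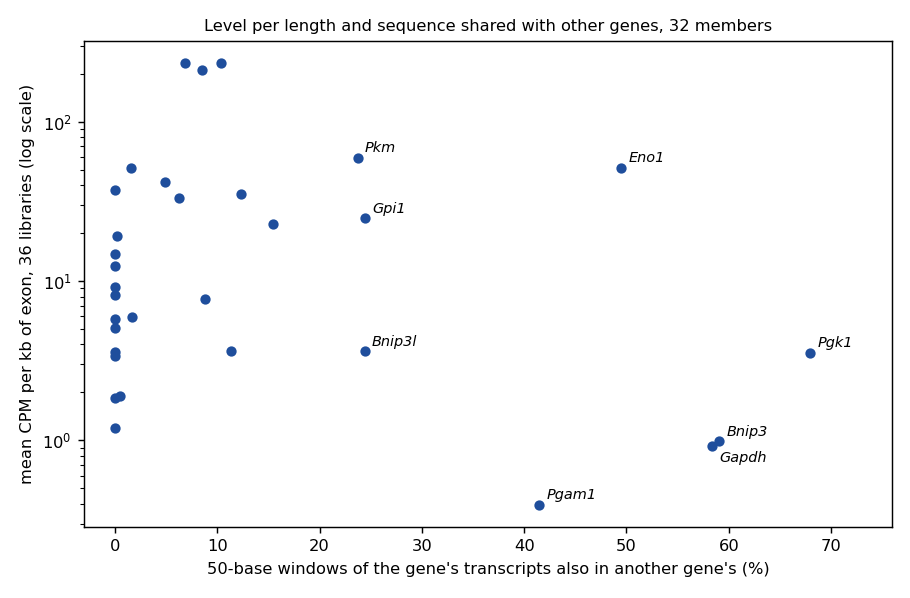
Mean CPM per kilobase of exon over 36 libraries (log scale) against the percentage of 50-base windows shared with transcripts of other genes, 1 point for each of 32 members. Gapdh, Pgk1, Pgam1 and Bnip3 combine a high share with a low level, whereas Eno1 shares 49.5% and stands at 51.4 CPM per kb.

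Promoter windows from 250 bases before to 50 after the transcription start were given by RefSeq (build GRCm38.p6) for 31 of the 33 members, in 45 windows. The 2 forms of the core of the hypoxia response element, ACGTG and GCGTG, were searched on both strands, where the palindrome CACGTG counts on each. At least 1 core was found in 82.2% of the member windows against 43.8% of all 32851 windows. The form ACGTG was in 55.6% against 19.6%, and GCGTG in 57.8% against 32.4%. The member windows are also richer in G and C, with a median of 62.0% against 52.7%. Gpi1 and Tpi1 were the members with a window and no core. A match is a description of the letters and not of binding. The windows of the 6 members that were called in a comparison of 2 groups, and of Slc16a3, which had the largest log2 fold change, are shown 5′ to 3′ on the strand of the gene, with the cores in capitals, so that their number and spacing can be compared.
Slc2a1 (chr4:119108495-119108794, plus strand): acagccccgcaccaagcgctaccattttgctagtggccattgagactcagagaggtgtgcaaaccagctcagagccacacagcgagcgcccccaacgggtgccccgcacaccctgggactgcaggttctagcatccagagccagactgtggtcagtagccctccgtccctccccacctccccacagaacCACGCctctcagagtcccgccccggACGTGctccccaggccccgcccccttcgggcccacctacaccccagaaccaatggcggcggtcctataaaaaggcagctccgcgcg
Hk1 (chr10:62340372-62340671, minus strand): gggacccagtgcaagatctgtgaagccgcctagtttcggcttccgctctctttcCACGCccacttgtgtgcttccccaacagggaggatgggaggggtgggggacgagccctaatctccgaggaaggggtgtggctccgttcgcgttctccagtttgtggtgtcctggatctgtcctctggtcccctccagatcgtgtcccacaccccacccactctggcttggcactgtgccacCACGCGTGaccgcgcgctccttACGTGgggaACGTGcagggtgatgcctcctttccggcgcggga
Hk2 (chr6:82774405-82774704, minus strand): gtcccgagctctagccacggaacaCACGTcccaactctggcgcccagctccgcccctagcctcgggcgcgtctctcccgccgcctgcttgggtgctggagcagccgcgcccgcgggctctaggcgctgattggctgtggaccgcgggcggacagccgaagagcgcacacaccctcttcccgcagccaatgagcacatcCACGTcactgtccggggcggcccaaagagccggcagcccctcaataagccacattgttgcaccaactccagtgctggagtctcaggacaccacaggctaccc
Slc16a3 (chr11:120948817-120949116, plus strand): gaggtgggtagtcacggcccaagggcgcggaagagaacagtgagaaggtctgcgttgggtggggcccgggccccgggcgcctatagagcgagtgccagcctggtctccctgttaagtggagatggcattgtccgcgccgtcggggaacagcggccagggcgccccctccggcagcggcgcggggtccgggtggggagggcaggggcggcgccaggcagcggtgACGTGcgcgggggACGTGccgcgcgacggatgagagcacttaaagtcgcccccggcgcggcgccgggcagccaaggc
Pdk1 (chr2:71872974-71873273, plus strand): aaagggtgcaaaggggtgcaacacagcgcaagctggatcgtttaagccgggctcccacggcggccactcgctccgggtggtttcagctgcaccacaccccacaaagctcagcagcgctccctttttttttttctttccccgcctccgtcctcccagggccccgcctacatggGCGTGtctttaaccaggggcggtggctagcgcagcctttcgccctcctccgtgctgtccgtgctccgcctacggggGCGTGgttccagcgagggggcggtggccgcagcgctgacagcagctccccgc
Egln1 (chr8:124949205-124949504, minus strand): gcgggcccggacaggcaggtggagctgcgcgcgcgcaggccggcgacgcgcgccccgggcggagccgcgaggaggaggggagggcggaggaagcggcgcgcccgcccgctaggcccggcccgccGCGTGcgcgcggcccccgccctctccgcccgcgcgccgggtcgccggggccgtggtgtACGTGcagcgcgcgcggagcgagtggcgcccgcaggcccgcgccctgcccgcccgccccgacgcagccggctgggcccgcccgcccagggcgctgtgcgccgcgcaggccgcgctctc
Egln3 (chr12:54203825-54204124, minus strand): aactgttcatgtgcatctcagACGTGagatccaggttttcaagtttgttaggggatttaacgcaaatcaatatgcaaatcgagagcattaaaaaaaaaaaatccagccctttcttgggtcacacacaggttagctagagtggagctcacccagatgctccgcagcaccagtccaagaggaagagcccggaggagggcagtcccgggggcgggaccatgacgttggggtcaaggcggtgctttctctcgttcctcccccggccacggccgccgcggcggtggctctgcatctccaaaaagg
Where a gene had several windows, the one with most cores is shown. That of Hk1, for an internal start, holds 5 cores, of which the first pair near the start overlap on opposite strands, whereas the window at the outer start of Hk1 holds 0. In Slc16a3 both cores lie within 27 bases of the start, and in Egln3 the single core lies 229 bases before it.

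Levels were then compared between groups with the quasi-likelihood test of edgeR in 1 model of all 36 libraries, and p-values were adjusted over all 15497 genes by the Benjamini-Hochberg method. Calls required both a change over 1.5-fold and an adjusted p under 0.05. In the test for any difference among the 6 groups, 12 of 32 members (37.5%) passed at an adjusted p under 0.05, where 39.5% of all genes did. These were Slc2a1, Hk1, Hk2, Gpi1, Pfkl, Aldoa, Tpi1, Pkm, Ldha, Hif1a, Egln1 and Egln3, thus none of the 9 further hypoxia response genes, whose adjusted p ranged from 0.0923 for Bnip3 to 0.83 for Adm. Aldoa, Gpi1 and Pfkl did not pass in every alternative, with adjusted p-values of up to 0.0716, 0.0939 and 0.121.

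In comparisons of 2 groups few members were called. The count was 0 for QCM against complete media, where 0.374% of all genes were called, 2 for SCM against complete media (background 6.08%), 4 for Wnt5a against complete media (background 10.2%), 0 for SCM against QCM (background 0.903%), 1 for Wnt5a against SCM (background 0.69%), 1 for anti-Ptk7 against IgG in SCM (background 1.23%) and 0 for anti-Ptk7 against IgG in Wnt5a (background 0.884%). As shares of 32 members, these counts are 6.25% for SCM and 12.5% for Wnt5a, close to the background. No member was called for the difference between the antibody effects in Wnt5a and in SCM, nor was any gene (background 0%).

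At an unadjusted p under 0.05, QCM against complete media gave 3 members (9.38%, where 12% of all genes were under it), SCM 10 (31.2%, background 24.7%), Wnt5a 10 (31.2%, background 33.1%) and SCM against QCM 6 (18.8%, background 17%). Leaving out the libraries numbered 3 gave 12 for SCM (37.5%, where 21.1% of all genes were under it) and 14 for Wnt5a (43.8%, against 31.5%), and leaving out those numbered 1 gave 10 for each (31.2%, against 22.8% and 29%). For QCM against complete media the counts were 1 (3.12%, against 7.96%) and 4 (12.5%, against 15%) in the same order. Wnt5a against SCM gave 11 (34.4%, background 18.9%), with 7 when the libraries numbered 3 were left out (21.9%, against 18.6%) and 12 when those numbered 1 were (37.5%, against 13%). The antibody in Wnt5a gave 1 (3.12%, background 15%), and the difference between the antibody effects 4 (12.5%, background 3.88%, 602 genes). Without the libraries numbered 3 these were 3 (9.38%, against 13.1%) and 3 (9.38%, against 4.14%). Without those numbered 1 they were 0 (against 13.8%) and 6 (18.8%, against 3.57%). The antibody in SCM gave 17 (53.1%, background 17.1%). With the libraries numbered 3 left out it gave 6 (18.8%, where 15.9% of all genes were under it), and without those numbered 1 it gave 21 (65.6%, against 15.5%).

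**Figure D3:**
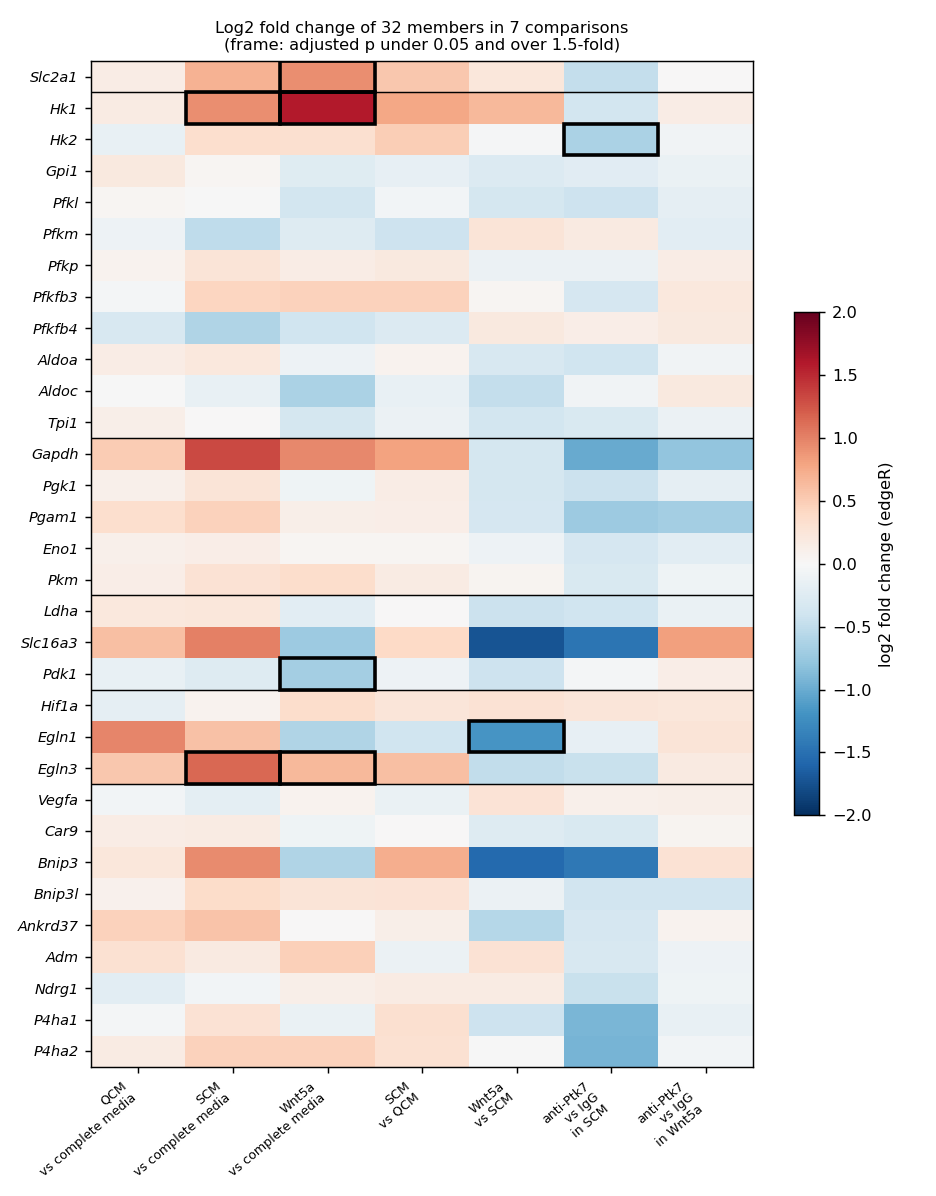
Log2 fold change of the 32 tested members (rows, in order of role, lines between roles) in 7 comparisons (columns), from blue (lower in the first group) to red (higher). A frame marks the 8 combinations called, of which Hk1 and Egln3 hold 2 each.

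Slc2a1, the basal glucose transporter, rose with Wnt5a. Its CPM had a lowest, median and highest value of 104, 124 and 157 in complete media + IgG and of 170, 191 and 424 in Wnt5a + IgG, without overlap. The log2 fold change was 0.92 ± 0.26 (SE), or 1.89-fold, at an adjusted p of 0.00821. The value of 424 CPM was that of replicate 1. Without this library the log2 fold change was 0.67 and the adjusted p 0.0603, and without the 6 libraries numbered 1 they were 0.75 and 0.000889. In SCM + IgG the values of 154, 192 and 273 CPM overlapped those of complete media, with a log2 fold change of 0.69 ± 0.26 (adjusted p = 0.0717). Without the libraries numbered 1 it was 0.66 and passed (adjusted p = 0.00431), and without those numbered 3 it was 0.66 and did not (adjusted p = 0.152). Slc2a1 was also called in SCM in a fit of the compared groups alone and with a term for the replicate number in the model.

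Hk1, a hexokinase bound to mitochondria, showed the largest change of a member called. Its CPM was 15, 26.6 and 33.4 (lowest, median, highest) in complete media + IgG, 21.6, 25.7 and 47.2 in QCM + IgG and 31.5, 41.0 and 84.3 in SCM + IgG. In Wnt5a + IgG it was 52.4, 68.0 and 149, so that each Wnt5a library exceeded each control. The change was 3.01-fold for Wnt5a against complete media (log2 1.59 ± 0.31, adjusted p = 0.000261) and held in each alternative. For SCM it was 1.91-fold (log2 0.94 ± 0.30, adjusted p = 0.0391), and this call was lost without the libraries numbered 3 (adjusted p = 0.0868) and with voom and limma on quantile-normalized (adjusted p = 0.0724) or TMM-scaled values (adjusted p = 0.0704). Leaving out 1 library ended it for SCM replicates 1 and 5 and complete media replicates 2, 3, 4 and 6, with adjusted p-values of up to 0.14.

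For Hk2, a paralog that Hif1a is known to induce, the mean was 32.1 ± 5.22 CPM (SD, n = 6) in complete media + IgG, 29 ± 5.38 in QCM + IgG, 40.6 ± 6.06 in SCM + IgG and 39.9 ± 10.5 in Wnt5a + IgG, and neither SCM nor Wnt5a passed the test against complete media (adjusted p = 0.237 and 0.219). With anti-Ptk7 in SCM it was called lower, as given with the antibody results.

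The other members of upper glycolysis were not called in a comparison of 2 groups. Pfkm, the muscle type phosphofructokinase, was at 25.6, 31.9 and 34.2 CPM in complete media + IgG and at 11.9, 20.5 and 33.7 in SCM + IgG, a log2 fold change of −0.51 ± 0.16 that passed on adjusted p (0.0371) but not on fold. The pass was lost without the libraries numbered 3 (adjusted p = 0.133) and without those numbered 1 (adjusted p = 0.109). Tpi1, the triose phosphate isomerase, was at 603, 696 and 902 CPM in complete media + IgG and at 479, 552 and 617 in Wnt5a + IgG, and it likewise passed on adjusted p alone (log2 −0.36 ± 0.12, adjusted p = 0.0228). In SCM its values of 589, 674 and 959 CPM stood with the control. Pfkfb4, which sets the level of an activator of phosphofructokinase, had the lowest log2 fold change of the members in SCM (−0.60 ± 0.23, adjusted p = 0.0921) and in QCM (−0.33, adjusted p = 0.619). In SCM it was called in a fit of the compared groups alone and with a term for the replicate number in the model. Pfkfb3, its paralog, had log2 fold changes of 0.42 in SCM and 0.46 in Wnt5a, neither past the test. Gpi1, the glucose phosphate isomerase, ranged from 115 to 305 CPM over the 36 libraries, and the liver and platelet type phosphofructokinases Pfkl and Pfkp from 166 to 516 and from 229 to 411 CPM. Aldoc, the brain type aldolase, was at 13.8, 17.3 and 29.7 CPM in complete media + IgG and at 9.16, 12.9 and 14.9 in Wnt5a + IgG (log2 −0.63 ± 0.25, adjusted p = 0.0666), and was called with DESeq2.

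In lower glycolysis Pkm was the member that passed on adjusted p, in Wnt5a against complete media. It was at 241, 257 and 294 CPM in complete media + IgG and at 310, 323 and 394 in Wnt5a + IgG, without overlap, yet the log2 fold change was 0.34 ± 0.11 (1.27-fold, adjusted p = 0.0224) and thus under the fold cutoff. Gapdh had the largest log2 fold change of the members in SCM, 1.32 ± 0.47 (adjusted p = 0.0626), and was called with DESeq2. Its CPM ran from 1.86 to 18.1 in SCM + IgG, where the highest value was replicate 3, and without the libraries numbered 3 the log2 fold change was 0.70. Replicate 2 of Wnt5a + IgG stood at 16.5 CPM beside 1.45 to 3.46 in the others of that group. Eno1, which ranged from 207 to 438 CPM over the 36 libraries, Pgk1 (5.01 to 12.7 CPM) and Pgam1 (0.137 to 2.39 CPM) did not pass in a comparison of 2 groups.

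On adjusted p alone, the members that passed were 3 of 32 in SCM against complete media (background 11.9%), 7 in Wnt5a against complete media (background 21.8%), 2 in Wnt5a against SCM (background 2.81%) and 2 for the antibody in SCM (background 2.72%).

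Pdk1, the kinase that shuts off pyruvate dehydrogenase, fell with Wnt5a. It was at 98.9, 125 and 201 CPM in complete media + IgG and at 51.9, 88.3 and 112 in Wnt5a + IgG, and the groups overlapped. The change was 1.59-fold (log2 −0.67 ± 0.24, adjusted p = 0.0449). The call was lost on leaving out any of 12 single libraries, with adjusted p-values of up to 0.125 without replicate 1 of Wnt5a + IgG, while the direction held in each case. It was also lost with voom and limma on TMM-scaled values (adjusted p = 0.0549) and without a filter on low counts (adjusted p = 0.0523). In SCM + IgG Pdk1 ranged from 72.1 to 233 CPM.

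Ldha was lower in Wnt5a than in SCM. Its CPM was 788, 849 and 1271 in SCM + IgG and 620, 693 and 717 in Wnt5a + IgG, without overlap, with a log2 fold change of −0.43 ± 0.10 (adjusted p = 0.0248), which was under the fold cutoff. Without the libraries numbered 1 the adjusted p was 0.0579. Against complete media (654, 781 and 925 CPM) neither group passed. Slc16a3, the lactate exporter induced by low oxygen, had the largest log2 fold change in this comparison, −1.72 ± 0.65, and did not pass (adjusted p = 0.135). Its CPM was 3.19, 14.2 and 121 in SCM + IgG and 7.30, 9.85 and 13.7 in Wnt5a + IgG. The value of 121 was replicate 3, and without the libraries numbered 3 the log2 fold change was −0.71.

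**Figure D4:**
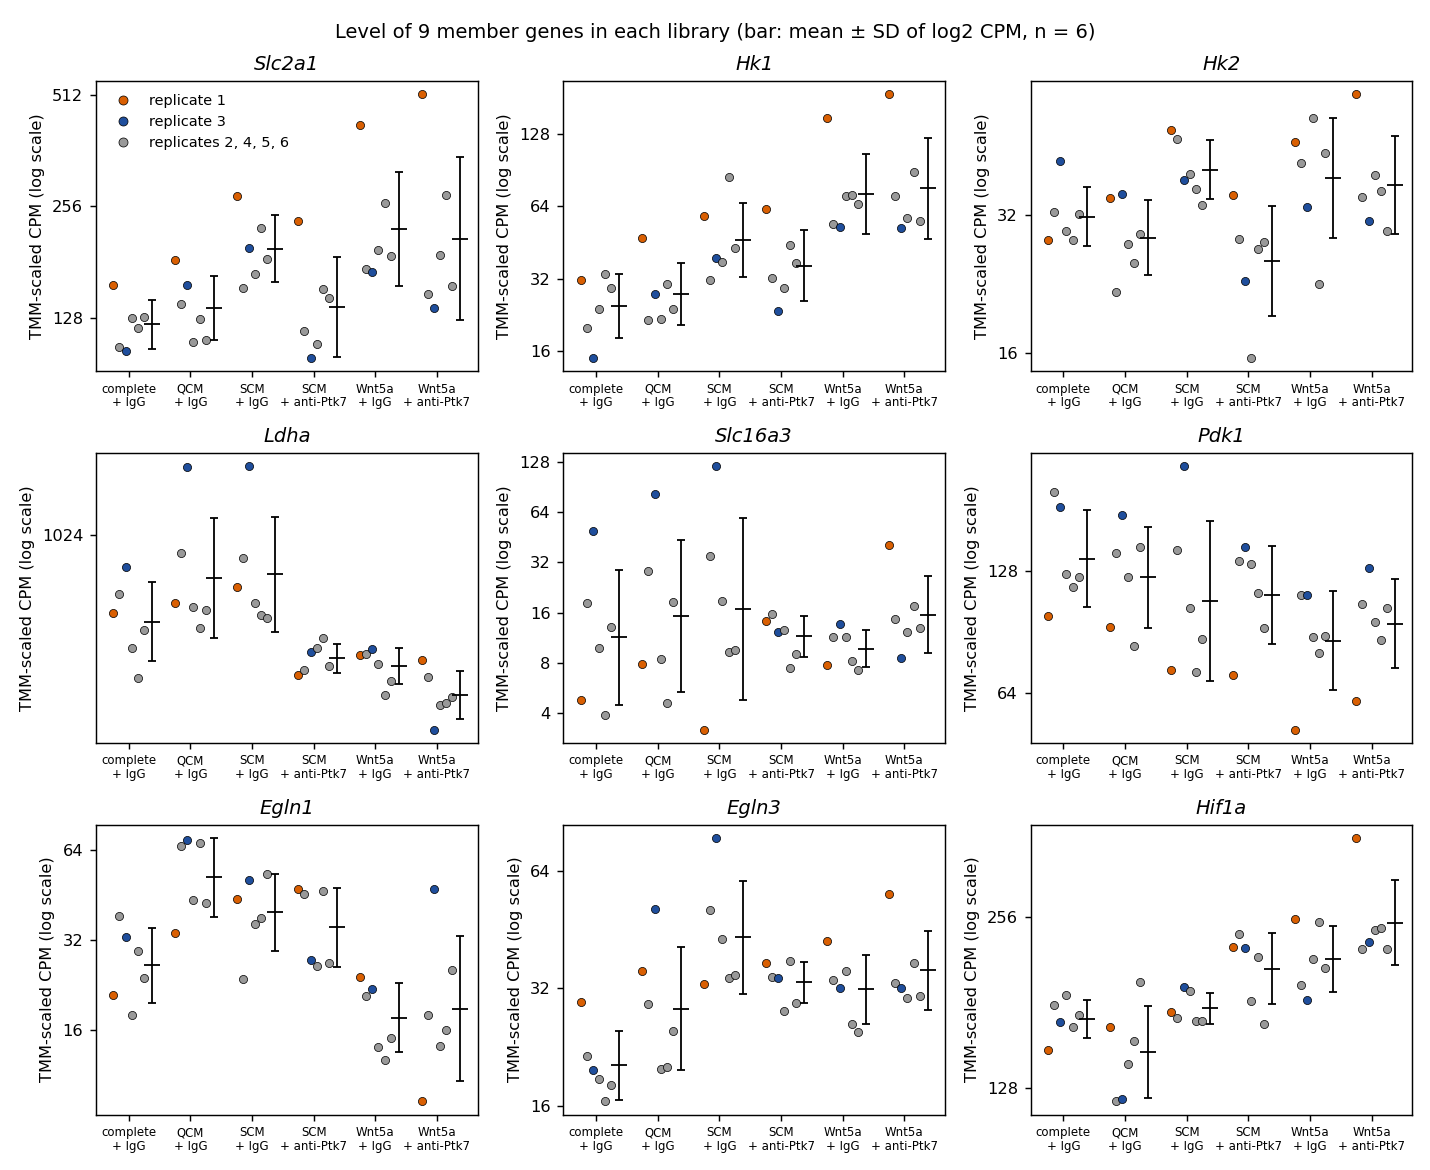
TMM-scaled CPM (log scale) of 9 members in each of 36 libraries, by group, with replicates 1 and 3 in colour and a bar for the mean ± SD of log2 CPM. Hk1 and Slc2a1 are higher in each Wnt5a + IgG library than in each complete media library, Egln1 lies between 12.7 and 24.1 CPM in Wnt5a + IgG, and replicate 3 is the highest for Slc16a3 in complete media, QCM and SCM with IgG.

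The 3 oxygen sensing genes differed in their pattern across the groups, and each passed the test for any difference among the 6 groups (adjusted p = 1.42e-05 for Hif1a, 0.000115 for Egln1 and 0.00195 for Egln3). Egln3, the hydroxylase that Hif1a itself induces, rose in SCM and in Wnt5a. It was at 16.4, 19.2 and 29.5 CPM in complete media + IgG and at 32.8, 38.6 and 77.8 in SCM + IgG, without overlap. The change was 2.21-fold (log2 1.14 ± 0.21, adjusted p = 0.000381) and was called in each alternative, with 1.353 as the highest and 0.918 as the lowest log2 fold change, the latter without the libraries numbered 3. In Wnt5a + IgG it was at 24.7, 32.8 and 42.4 CPM, a change of 1.57-fold (log2 0.65 ± 0.21, adjusted p = 0.0253). This call was lost without replicate 1 of Wnt5a + IgG (adjusted p = 0.0798) or replicates 4, 5 or 6 of complete media + IgG. It was also lost with voom and limma on quantile-normalized values (adjusted p = 0.0503). In QCM + IgG it was at 19.9, 26.9 and 51.0 CPM and did not pass (adjusted p = 0.262).

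Egln1, the main hydroxylase in most tissues, was lower in Wnt5a than in SCM. It was at 17.9, 26.7 and 38.6 CPM in complete media + IgG, 33.7, 55.0 and 69.4 in QCM + IgG, 23.6, 40.9 and 53.4 in SCM + IgG and 12.7, 17.8 and 24.1 in Wnt5a + IgG. Wnt5a against SCM was called, at 2.27-fold lower (log2 −1.18 ± 0.28, adjusted p = 0.023), with 1 overlap, as the lowest SCM library (replicate 2) lay within the range of Wnt5a. The adjusted p was 0.0224 without the libraries numbered 3, and it was up to 0.0711 on leaving out 1 library, where SCM replicates 1 or 6 or Wnt5a replicate 5 ended the call. In QCM against complete media Egln1 had the largest log2 fold change of the members in that comparison, 0.98 ± 0.28, with an adjusted p of 0.0968. It was called with DESeq2, in a fit of these 2 groups alone, without the libraries numbered 1 and with a term for the replicate number in the model.

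Hif1a itself was at 149, 169 and 187 CPM in complete media + IgG and at 183, 212 and 254 in Wnt5a + IgG. The log2 fold change was 0.36 ± 0.11 (1.28-fold), past the adjusted p (0.0196) and under the fold cutoff. Without the libraries numbered 1 it was 0.27 and no longer passed (adjusted p = 0.0721). Its level was lowest in QCM + IgG, with a mean of 150 ± 28.7 CPM, and highest in Wnt5a + anti-Ptk7, with 254 ± 49.6, where replicate 1 reached 354 CPM beside 225 to 245 in the others. The group means ranked, lowest first, from QCM through complete media and SCM with IgG to SCM with the antibody, then Wnt5a with IgG and last Wnt5a with the antibody. Of these neighbours, the 4 pairs that were tested here did not pass (adjusted p between 0.262 and 0.78).

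None of the 9 further hypoxia response genes was called in a comparison of 2 groups. Vegfa was at 64.5, 85.9 and 95.7 CPM in complete media + IgG, 55.4, 71.6 and 83.5 in SCM + IgG and 75.4, 87.2 and 101 in Wnt5a + IgG, which overlap. Car9 was at 84.1, 90.1 and 120 CPM in complete media + IgG and at 84.3, 98.4 and 173 in SCM + IgG. Ndrg1, a stress gene of differentiated epithelium, ran from 207 to 290 CPM in complete media + IgG and from 211 to 380 in Wnt5a + IgG. Adm, the peptide adrenomedullin, stayed between 0 and 6.28 CPM in all libraries. Ankrd37 and the mitophagy receptor Bnip3l were at 2.42 to 10.9 and 8.02 to 19.6 CPM over the 36 libraries. The largest log2 fold changes of this group were those of Bnip3, −1.55 ± 0.53 for Wnt5a against SCM (adjusted p = 0.0994), with 0.598 to 15.3 CPM in SCM + IgG. The highest of these was replicate 3, and without the libraries numbered 3 the log2 fold change was −0.49. Leaving out SCM + IgG replicate 5 alone brought Bnip3 past the test.

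The antibody effect was read as anti-Ptk7 against IgG within SCM and within Wnt5a. Markers of several cell types were called lower in the same comparisons, where 1.23% and 0.884% of all genes were called. They were the enterocyte marker Alpi (1 of 10 in each), the fetal-like marker Ly6a (1 of 6 in each, 3.32-fold in SCM and 2.92-fold in Wnt5a), the enteroendocrine markers Cck and Sct in SCM (2 of 7) and Cck in Wnt5a, and the Paneth marker Lyz1 in Wnt5a (1 of 6). The part of these shifts in the values of the members was not tested. In SCM, Hk2 was called lower. It was at 33.6, 38.8 and 49.0 CPM with IgG and at 15.6, 27.5 and 35.4 with anti-Ptk7, and the ranges overlapped. The change was 1.55-fold (log2 −0.63 ± 0.18, adjusted p = 0.0469), just past the threshold. The adjusted p rose to 0.0993 without the libraries numbered 3, and leaving out 1 library ended the call in 22 of 36 cases, with a log2 fold change between −0.52 and −0.74 over the alternatives. Slc2a1 had a log2 fold change of −0.48 with anti-Ptk7 in SCM and did not pass (adjusted p = 0.327), but was called lower without the libraries numbered 1 (−0.59, adjusted p = 0.0378). In Wnt5a the mean of Hk2 was 39.9 ± 10.5 CPM with IgG and 38.3 ± 10.7 with anti-Ptk7.

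The levels of Ldha and Aldoa did not overlap between anti-Ptk7 and IgG in SCM, and Ldha passed on adjusted p alone. Ldha was at 660, 693 and 740 CPM with anti-Ptk7 against 788, 849 and 1271 with IgG (log2 −0.40 ± 0.10, adjusted p = 0.0288, under the fold cutoff), with an adjusted p of 0.0337 without the libraries numbered 3. Aldoa was at 497, 546 and 600 against 610, 661 and 1039 CPM and did not pass (log2 −0.39 ± 0.12, adjusted p = 0.0634). Without the libraries numbered 3 its log2 fold change was −0.245 (adjusted p = 0.105), while without those numbered 1 it passed on adjusted p alone (−0.46, adjusted p = 0.0451). Over the 32 members, 28 had a negative log2 fold change with anti-Ptk7 in SCM and the median was −0.35, where the median over all genes was 0.00. Without the libraries numbered 3, 26 were negative and the median was −0.23, and without those numbered 1 the values were 28 and −0.45. The prolyl hydroxylases of collagen P4ha1 and P4ha2 had log2 fold changes of −0.91 and −0.93, and −0.56 and −0.49 without the libraries numbered 3, none past the test. In Wnt5a the median over the members was −0.06, with 15 positive and 17 negative. The difference between the antibody effects had a median of 0.26 over the members, against 0.00 over all genes. It was positive for 30, and no single member passed. This difference contains the antibody comparison in SCM with its sign turned, so the 2 are not separate results. Leaving out the libraries numbered 3, it was positive for 25 with a median of 0.22, and without those numbered 1 for 29 with a median of 0.35.

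As a set, the 32 members had a mean log2 CPM that differed from that of complete media + IgG by 0.12 ± 0.33 (SD over 6 libraries) in QCM + IgG, 0.23 ± 0.37 in SCM + IgG, −0.08 ± 0.14 in SCM + anti-Ptk7, 0.07 ± 0.10 in Wnt5a + IgG and 0.06 ± 0.15 in Wnt5a + anti-Ptk7. The libraries of complete media + IgG themselves had an SD of 0.25. Set against the control library of the same replicate number, the mean was higher in QCM + IgG for 6 of 6 numbers (0.01 to 0.23) and in SCM + IgG for 5 of 6 (−0.04 to 0.52), while Wnt5a + IgG was higher for 4 and lower for 2 (−0.31 to 0.31). With anti-Ptk7 the differences ran from −0.53 to 0.34 in SCM and from −0.48 to 0.50 in Wnt5a. The labels do not say what a number marks, and this pairing was chosen after seeing the data. By role, the mean was highest in SCM + IgG for the oxygen sensing genes (0.58 ± 0.23, with replicate 3 at 1.02). Without replicate 3 their mean was 0.49 both in SCM + IgG and in SCM + anti-Ptk7. Lower glycolysis was also highest in SCM + IgG (0.37 ± 0.45, with replicate 3 at 1.23 and the other 5 libraries at 0.20 ± 0.17). Of its 5 members, Gapdh, Pgk1, Pgam1 and Eno1 have uncertain levels for their shared sequence, and Gapdh and Pgam1 were also low. Slc2a1 was highest in Wnt5a + IgG (0.85 ± 0.51). The 3 tested genes for the fate of lactate and pyruvate were lowest in Wnt5a + IgG (−0.37 ± 0.25). These means are a description and carry no test.

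**Figure D5:**
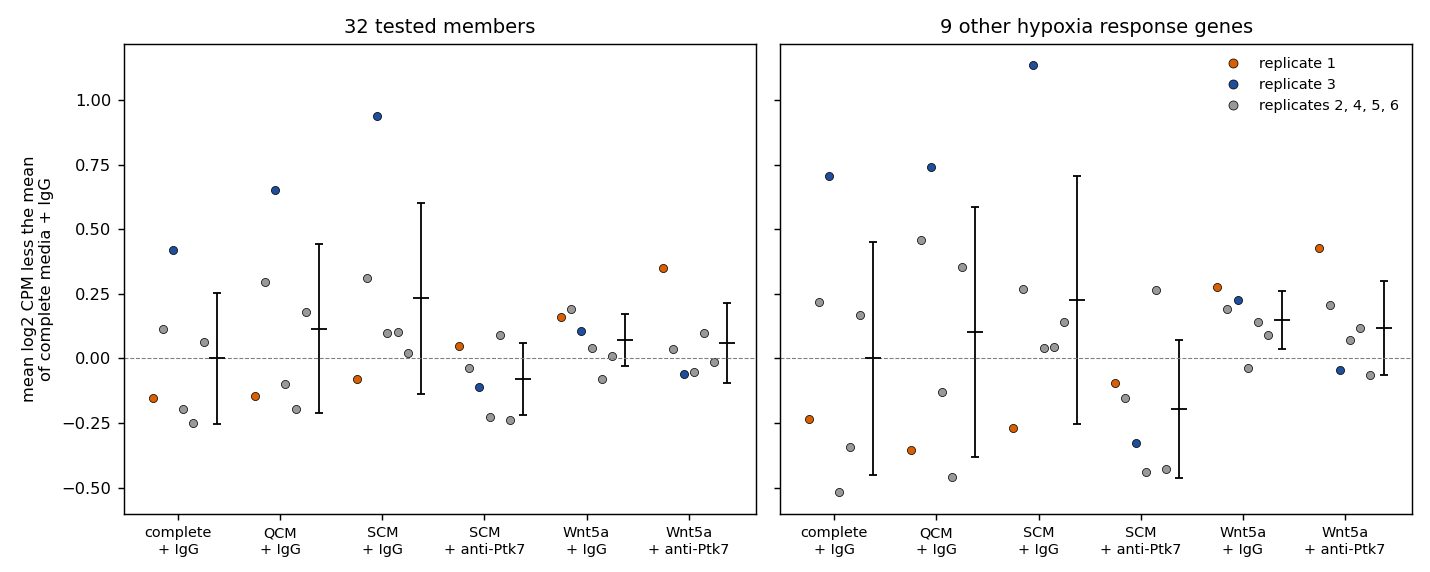
Mean log2 CPM in each library, less the mean of complete media + IgG, over the 32 tested members (left) and the 9 further hypoxia response genes (right), with a bar for mean ± SD over 6 libraries. Replicate 3 stands at 0.42, 0.65 and 0.94 in complete media, QCM and SCM with IgG on the left, above each other library of its group.

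Replicate 3 stood above its group in complete media, QCM and SCM with IgG. Over the members its mean was 0.42 in complete media + IgG, where the other 5 libraries lay between −0.25 and 0.11, 0.65 in QCM + IgG (others −0.20 to 0.30) and 0.94 in SCM + IgG (others −0.08 to 0.31). Its means were −0.11 with SCM and antibody, 0.11 with Wnt5a and IgG and −0.06 with Wnt5a and antibody, within or at the edge of the range of their groups. For Slc16a3 the 3 libraries read 49.1, 82.0 and 121 CPM, beside 3.90 to 18.2, 4.58 to 28.6 and 3.19 to 34.8 CPM in the other libraries. P4ha1 read 31.6, 28.5 and 40.2 CPM, beside at most 14, 18 and 22.4. Car9 read 120, 149 and 173 CPM, beside at most 102, 120 and 103.

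Slc2a1 and Hk1 did not show this. In complete media + IgG replicate 3 had the lowest level of both, 104 and 15 CPM. The other known targets of Hif1a (25 tested) had their highest level in replicate 3 for 8, 10 and 12 genes in the same 3 groups (32%, 40% and 48%, against the 16%, 19.5% and 20.2% of all genes given above). For the 14 proteins of the Hif pathway the counts were 3, 4 and 2 (21.4%, 28.6% and 14.3%), near those shares. Fetal-like markers were lowest in replicate 3 of each of the 6 groups, for example 148 CPM in complete media + IgG beside 256 to 698. The total counts of the 3 libraries, 11782667, 15488596 and 17072397, were within the range of all libraries in this experiment. The epithelial sum was lowest in replicate 3 of complete media + IgG (7517 CPM, others 7817 to 10902) and of SCM + IgG (11710, others 12691 to 19637). In QCM + IgG it was within the range of the others (10013, others 9711 to 13382). The part of these markers and of depth in the levels of replicate 3 was not tested.

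Genes of neighbouring pathways were counted from 9 lists of 129 genes. In SCM against complete media, 5 of 25 other known Hif1a targets (20%) were called higher and 0 lower, and in Wnt5a again 5 were higher and 0 lower, against a background of 6.08% and 10.2% called in either direction. They were the growth factor binding protein Igfbp3 (5.34-fold in SCM, 11.4-fold in Wnt5a), the lipid droplet protein Plin2 (1.74-fold, 2.42-fold), the heme oxygenase Hmox1 (1.90-fold, 2.28-fold), endothelin Edn1 (1.98-fold, 1.74-fold) and the clock repressor Bhlhe40 (1.51-fold, 1.75-fold). Of these, the level of Igfbp3 in complete media + IgG was 0.788 ± 0.524 CPM. Both comparisons share the complete media libraries. In the other 5 comparisons between 2 groups 0 of 25 were called.

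In the other lists 0 to 3 genes were called in a comparison, shares that rest on few genes and are read against the same 6.08% in SCM and 10.2% in Wnt5a. Among the 14 tested proteins of the Hif pathway, 2 (14.3%, near the background) were called higher in Wnt5a against complete media, Epas1, the sister factor of Hif1a (2.24-fold, 13.7 ± 7.92 against 6.12 ± 2.24 CPM), and its partner Arnt2 (1.82-fold). Of 12 regulators of glucose use and growth, 1 was called in SCM (8.33%) and 3 in Wnt5a (25%). Mycn rose in SCM (8.41-fold, 8.95 ± 0.801 against 1.04 ± 0.636 CPM) and in Wnt5a (14.4-fold), and it was higher in SCM than in QCM (2.93-fold). Myc was higher (1.55-fold) and Sesn2 lower (1.51-fold) in Wnt5a.

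Of 14 tested other glycolysis enzymes and paralogs, 2 were called in SCM and 2 in Wnt5a (14.3% each). Bpgm, which makes the effector of hemoglobin from a glycolytic intermediate, rose in SCM (1.63-fold) and Wnt5a (1.78-fold). Pfkfb1 was higher in SCM (2.09-fold) and lower in Wnt5a than in SCM (1.94-fold). The germ line paralog Gapdhs was lower in Wnt5a (0.318 ± 0.212 against 0.841 ± 0.306 CPM). Of 8 genes of gluconeogenesis, 2 were called in SCM (25%) and 1 in Wnt5a (12.5%). Pck2 fell in SCM (1.62-fold) and Wnt5a (1.69-fold) and G6pc rose in SCM (2.27-fold). Of 12 tested genes of sugar transport and fructose use, 1 was called in SCM and 1 in Wnt5a (8.33% each, near the background). The fructose transporter Slc2a5 was lower in SCM (1.72-fold) and the ketohexokinase Khk lower in Wnt5a (1.54-fold). Of 15 genes of pyruvate entry and lactate transport, 1 (6.67%) was called in Wnt5a, where Pdk4 was lower, from 1.04 ± 0.959 to 0.0643 ± 0.157 CPM. The lists of the pentose phosphate pathway and of glycogen had 0 calls in every comparison, and none of the 9 lists had a call for either antibody comparison or for QCM.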

How the data were processed

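RNA was sequenced from 36 libraries of mouse intestinal organoids, 6 in each of 6 groups taken from the labels. RNA was extracted with a column kit, amplified with Smart-Seq V4 and made into libraries with Nextera XT. The authors aligned reads with GSNAP to mm10 through HTSeqGenie, per the methods and the processing notes, and deposited raw counts of reads within coding sequences, 1 table per library. Strand and the treatment of reads that match several places are not given in the sources used here.

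Counts were tested with the quasi-likelihood test of edgeR 4.0.16 in R 4.3.3, with filterByExpr (15497 of 52636 genes kept), TMM scaling, 1 model of 6 group means and Benjamini-Hochberg adjustment over all genes kept. A call needed an adjusted p under 0.05 and a change over 1.5-fold. Levels are TMM-scaled CPM, and means on the log2 scale used a prior count of 2. Symbols came from GENCODE M21. Aldoa matched more than 1 identifier, of which the one with the larger overlap with RefSeq's gene was used. The script was tested on simulated data. Libraries held between 9581589 and 21029769 counts, and replicates differed by more than sampling noise.

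The members and the gene lists were chosen with earlier results of these data known. Each member called is named, with the members of the lowest and highest log2 fold change in a comparison, and of the other lists up to 4 called genes per comparison, plus 1 more Hif1a target in each of the SCM and Wnt5a comparisons, added after its values were seen so that all 5 are named. Alternatives were voom with limma 3.58.1 (the test of the study's methods), DESeq2 1.42.0, other scalings and filters, other fold cutoffs, a replicate block, a fit of the compared groups alone and leaving out each library.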

Additional observations from a re-analysis of the deposited data

Results flagged for a closer look

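Among 192 sets of 6 libraries (32 members in 6 groups), 14 held 1 library far from the other 5 by Dixon's criterion, where chance gives about 5% of the sets. Replicate 3 was the far library for Hk2 in complete media + IgG (42.0 CPM, others 28.2 to 32.5), for Aldoa in QCM + IgG (999 CPM, others 569 to 699) and in SCM + IgG (1039 CPM, others 610 to 688), and for Car9 in SCM + IgG (173 CPM, others 84.3 to 103).

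Replicate 1 was the far library for Hk1 in Wnt5a + IgG (149 CPM, others 52.4 to 71.2) and for Pfkp in SCM + anti-Ptk7 (357 CPM, others 274 to 299). In Wnt5a + anti-Ptk7 it was so for Aldoa (683 CPM, others 480 to 536), Pkm (429 CPM, others 277 to 315), Hif1a (354 CPM, others 225 to 245) and Egln3 (55.8 CPM, others 30.2 to 37.2).

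The other 4 were Pfkm in Wnt5a + IgG replicate 5 (18.1 CPM, others 24.7 to 28.4), Gapdh in Wnt5a + IgG replicate 2 (16.5 CPM, others 1.45 to 3.46), Ankrd37 in SCM + anti-Ptk7 replicate 5 (9.38 CPM, others 4.34 to 5.73) and Adm in complete media + IgG replicate 4 (0 CPM, others 1.17 to 4.67).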

How the results depend on the processing

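No direction reversed for the 8 calls described above. The count of members called for QCM against complete media, 0, became 1 (Egln1) with DESeq2, in a fit of the compared groups alone and without the libraries numbered 1, and was 0 to 1 on leaving out single libraries. For SCM against complete media, 2 became 1 with voom on TMM-scaled values, at a fold over 2 and without the libraries numbered 3, became 3 with DESeq2 and at 10 or more counts in every library (29 members tested, both with Gapdh), without a fold cutoff (with Pfkm) and without the libraries numbered 1 (with Slc2a1), became 4 in a fit of the compared groups alone (with Slc2a1 and Pfkfb4), and was 1 to 3 on leaving out single libraries. For Wnt5a against complete media, 4 became 7 without a fold cutoff and 1 at a fold over 2, and was 1 to 5 on leaving out single libraries, 1 being the count without Wnt5a + IgG replicate 1. It was 3 with either voom fit and without a filter, 5 with DESeq2 (with Aldoc) and 6 in a fit of the compared groups alone (with Aldoc and Egln1). With voom on quantile-normalized values the count for SCM stayed at 2, with Pfkm in place of Hk1. For SCM against QCM, 0 became 2 without the libraries numbered 1 (Egln3 and Hk1). For Wnt5a against SCM, 1 became 2 without a fold cutoff, and was 0 to 2 on leaving out single libraries. For anti-Ptk7 in SCM, 1 became 0 without a filter, in a fit of the compared groups alone (31 members tested), at a fold over 2 and without the libraries numbered 3, became 2 without a fold cutoff (Ldha) and without the libraries numbered 1 (Slc2a1), and was 0 to 1 on leaving out single libraries. The cause was not tested, except that a changed fold cutoff alone sets the counts given for it. The difference between groups in the mean over the members moved by less than 1 SD between libraries under each alternative run. This bound is loose, since each group's SD exceeded its difference from complete media + IgG. Without the libraries numbered 3 the mean (log2, from that of complete media + IgG) was −0.084 in complete media + IgG, 0.091 in SCM + IgG and 0.065 in Wnt5a + IgG. With them it was 0.232 in SCM + IgG and 0.072 in Wnt5a + IgG.

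The labels give the groups the same replicate numbers but do not say that a number marks a mouse. Deviations from the group means correlated at 0.092 on average between libraries of the same number (34 of 90 pairs over 0.1) and at −0.018 otherwise, and 16 of 36 libraries correlated best with their own number. With the replicate block, the count was 1 for QCM against complete media (Egln1), 4 for SCM against complete media (with Slc2a1, adjusted p = 0.000937, and Pfkfb4, adjusted p = 0.00532), 5 for Wnt5a against complete media (with Aldoc, log2 −0.59, adjusted p = 0.0271), 2 for SCM against QCM (Egln3 and Hk1), 2 for Wnt5a against SCM (with Hk1) and 17 for any difference among the 6 groups.

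Low levels, with means of 0.783 CPM for Pgam1, 2.23 for Bnip3, 2.98 for Adm and 3.83 for Gapdh, limit what those members can show.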
